A study of Mus musculus with 12 samples.

Results

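The kinesin genes of mouse lung are described here as measured in acute lung injury (ALI) and in control lungs. Members were taken by name from the deposited gene count table, as protein-coding genes whose symbol starts with Kif and a digit, together with Kifc1, Kifc2 and Kifc3. This gave 42 genes of 54532 in the table. RNA of 12 lung samples was profiled by bulk RNA sequencing, 6 with ALI and 6 controls, in a study whose design concerns injury after drowning in seawater. The labels give lung as the tissue and control or acute lung injury as the treatment, and they name no strain, age, sex, dose or time after injury. Separate animals are not stated for the samples within a group, and every p-value here covers only the variation among the samples profiled. Total counts were 16527017 to 19706494 in ALI samples and 15707937 to 18216324 in controls.

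Kinesins are motor proteins that use ATP to move along microtubules or to take microtubules apart. The mitotic members build the spindle, align chromosomes and organise the midbody as a cell divides, and their transcripts are made mainly in cycling cells. The transport members carry vesicles, mitochondria and signalling complexes in cells of most kinds, and others work in cilia or in the Hedgehog pathway, which signals through the primary cilium. By textbook role the 42 genes were sorted into 13 mitotic, 16 transport, 6 cilium and Hedgehog and 6 other kinesins. The remaining gene, Kif1bp, encodes a kinesin-binding protein and not a motor, and is a member by its symbol alone.

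Of the 42 genes, 38 had enough counts to be tested. Kif2b, a mitotic kinesin, and Kif12 had no count in any sample. Kif17, a dendritic and ciliary transport motor, had 34 counts over the ALI samples and 27 over the controls, and Kif28 had 3 and 1, so neither was tested. The filter on low counts would have kept 36 of the 38 on the control samples alone, the exceptions being Kif18b and Kif5c. Changes are log2 fold changes of ALI over control ± SE from edgeR's quasi-likelihood test on the counts, and a gene was called at a Benjamini-Hochberg adjusted p under 0.05 over the 16185 genes tested. By that rule 14 kinesin genes rose, 5 fell and 19 were not called. The groups differed in many genes, with 36.6% of all tested genes called, 18.9% higher and 17.7% lower in ALI, and a median log2 fold change over all genes of -0.06.

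Mitotic and transport kinesins differed in these data. All 12 tested mitotic kinesins rose in ALI, from 2.04-fold for Kif18a to 8.18-fold for Kif11, and in each of the 12 every ALI sample lay above every control. Over all tested genes that separation was found for 13.1%. The count depends on the sorting by role. Kif2a, a relative of Kif2c that also acts at spindle poles, was sorted with the other kinesins. It was not called, at a log2 fold change of 0.18 ± 0.08 (edgeR adjusted p = 0.0916). Among the 14 tested transport kinesins 1 rose, 3 fell and 10 were not called, which is below the 18.9% called higher over all genes and close to the 17.7% called lower. The median log2 fold change was 2.47 over the 12 mitotic and -0.14 over the 14 transport kinesins.

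**Figure D1:**
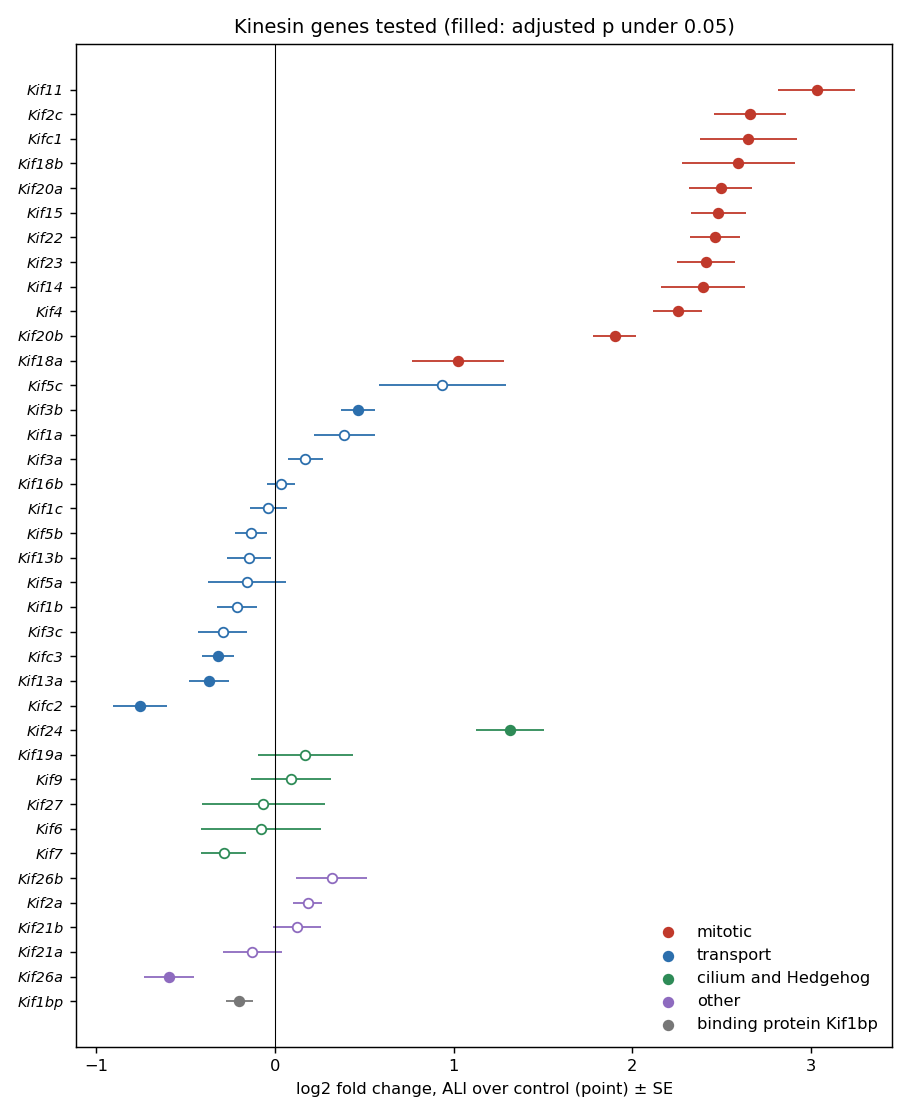
Log2 fold change, ALI over control, of the 38 tested kinesin genes by role, with the SE as a horizontal line. Filled points have an adjusted p under 0.05. The 12 mitotic kinesins lie between 1.03 and 3.03, while the 14 transport kinesins lie between -0.75 and 0.94.

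The promoter next to the start of a mitotic kinesin gene often holds a CCAAT box, bound by nuclear factor Y, or an element of the cell cycle genes homology region, and such letters were looked for in the 250 bases before the start. Sequences are those of RefSeq on GRCm38, which holds a promoter for 32 of the 42 genes. The promoters searched do not include that of Kif20a, which ranks before Kif11 by p. Of those searched, 3 are shown, of the mitotic genes with the smallest p whose window overlaps no annotated exon. They are written in the direction of the gene with matches in capitals, and set a promoter with both kinds of element beside promoters with fewer. They are chr19:34922108-34922357 (plus strand) for Kif20b, chr9:61946800-61947049 (minus strand) for Kif23 and chr19:37376132-37376381 (plus strand) for Kif11.
Kif20b: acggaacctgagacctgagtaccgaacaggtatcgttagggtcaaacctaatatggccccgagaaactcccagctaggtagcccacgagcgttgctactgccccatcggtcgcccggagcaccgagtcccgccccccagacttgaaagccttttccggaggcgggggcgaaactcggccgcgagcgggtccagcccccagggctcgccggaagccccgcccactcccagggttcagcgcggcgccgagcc
Kif23: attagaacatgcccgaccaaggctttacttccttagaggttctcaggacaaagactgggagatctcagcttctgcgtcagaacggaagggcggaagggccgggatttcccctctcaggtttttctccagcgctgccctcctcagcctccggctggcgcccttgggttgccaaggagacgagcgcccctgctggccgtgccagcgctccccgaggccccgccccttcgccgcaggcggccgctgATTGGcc
Kif11: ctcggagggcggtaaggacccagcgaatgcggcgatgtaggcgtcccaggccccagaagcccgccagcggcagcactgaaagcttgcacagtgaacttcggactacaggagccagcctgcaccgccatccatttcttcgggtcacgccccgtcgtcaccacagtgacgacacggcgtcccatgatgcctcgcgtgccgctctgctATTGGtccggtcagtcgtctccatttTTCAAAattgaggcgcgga

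Kif11 holds both kinds of letters on the strand opposite to the gene, CCAAT (written ATTGG in the line above) at position -45 from the start and TTTGAA (written TTCAAA) at position -19. Kif23 holds CCAAT at position -7, and Kif20b holds none of the motifs searched, although all 3 genes rose. Searched on both strands were CCAAT as the box of nuclear factor Y, TTTGAA or the variant TTTAAA as the element of the homology region, and TTGGCGC with the variant form TTCCCGC as sites of E2F factors. No motif contains another, and TTTAAA reads the same on both strands. CCAAT was found in 8 of 12 mitotic genes with a promoter (66.7%), in 3 of 10 transport genes (30.0%) and in 37.5% of all 27025 genes with a promoter. These 12 mitotic genes are not the 12 that were tested and rose. They include Kif2b, which had no count in any sample and holds CCAAT at position -44, and do not include Kif20a. TTTGAA was found in 5 of 12 mitotic genes (41.7%), in 1 of 10 transport genes and in 18.3% of all genes. The variant TTTAAA was found in 2 of 12 mitotic genes (16.7%), in no transport gene and in 13.7% of all genes. The first E2F form, TTGGCGC, was found in 2 of 12 mitotic genes, in no transport gene and in 2.31% of all genes. The second form was found in no mitotic or transport gene and in 4.38% of all genes. A match describes letters and is not evidence that a factor binds there.

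Kif11 encodes the bipolar motor that pushes spindle poles apart (chr19:37376403-37421859, plus strand, GRCm38). Its level in CPM, counts scaled to the size of the library, had a lowest value of 25.2, a median of 30.4 and a highest of 32.6 in ALI samples, against 1.72, 3.67 and 5.57 in controls. The ALI samples lay close together, and the highest control stayed well below the lowest ALI sample. This was a log2 fold change of 3.03 ± 0.22 (edgeR quasi-likelihood test, adjusted p = 1.54e-07). Kif15, a second spindle motor that can act beside Kif11, measured 13.1, 16.5 and 17.6 CPM (lowest, median, highest) in ALI, against 2.17, 2.85 and 3.72 CPM in controls. Kif15 rose by 2.48 ± 0.15 on the log2 scale (edgeR adjusted p = 5.89e-08). Kifc1, a minus-end motor that focuses spindle poles, measured 8.95, 12.4 and 17.4 CPM in ALI, against 0.822, 1.99 and 3.12 CPM in controls. It rose by 2.65 ± 0.27 (edgeR adjusted p = 3.60e-06), and its ALI samples spread more than those of Kif11. Reads of Kifc1 may be shared with the near copy Kifc5b, a gene outside the name rule, which rose by 1.61 ± 0.25 (edgeR adjusted p = 0.00013). In whole tissue, more cells of a type and more RNA per cell cannot be told apart.

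Of the motors that act on chromosomes and their microtubules, Kif18a stood below the rest. Kif18a (chr2:109280738-109341747, plus strand), which damps chromosome movements at the metaphase plate, measured 5.38, 6.29 and 7.43 CPM (lowest, median, highest) in ALI samples and 1.42, 3.04 and 4.58 CPM in controls. The groups did not overlap, but the gap between them was narrow, and the log2 fold change was 1.03 ± 0.26 (edgeR adjusted p = 0.00603). Its relative Kif18b, which shortens astral microtubules, measured 9.41, 10.1 and 15.02 CPM in ALI and 0.300, 1.90 and 2.90 CPM in controls. Kif18b rose by 2.59 ± 0.32 (edgeR adjusted p = 1.79e-05), with 1 control near 0 and 1 ALI sample above the other 5. Kif2c, which takes microtubules apart at kinetochores to correct faulty attachments, measured 8.26, 10.9 and 13.6 CPM in ALI and 1.19, 1.51 and 2.40 CPM in controls. Its log2 fold change was 2.66 ± 0.20 (edgeR adjusted p = 2.46e-07).

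The chromokinesins, which bind chromosome arms, rose in a like way. Kif22 measured 15.1, 15.9 and 19.6 CPM (lowest, median, highest) in ALI samples and 2.11, 3.20 and 3.45 CPM in controls, a log2 fold change of 2.46 ± 0.14 (edgeR adjusted p = 3.67e-08). Kif4, which also shortens the central spindle, measured 14.3, 15.01 and 17.7 CPM in ALI and 2.60, 3.07 and 4.12 CPM in controls, a log2 fold change of 2.25 ± 0.14 (edgeR adjusted p = 5.72e-08). For both genes the lowest ALI sample was several times the highest control. In Kif4 15.1% of exon bases are shared with Pdzd11 on the other strand, and the strand setting of the counting is not given in the sources used.

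The motors of the central spindle and midbody, which act as the cell divides, were also higher in ALI. Kif23, the motor subunit of centralspindlin, measured 28.3, 30.6 and 32.1 CPM (lowest, median, highest) in ALI samples and 3.97, 5.22 and 8.86 CPM in controls. Its ALI samples lay close together, and it rose by 2.41 ± 0.16 on the log2 scale (edgeR adjusted p = 1.03e-07). Kif20a, which brings the chromosomal passenger complex to the midzone, measured 19.9, 22.4 and 24.8 CPM in ALI and 2.62, 3.53 and 5.91 CPM in controls, and rose by 2.50 ± 0.18 (edgeR adjusted p = 1.45e-07). Cdc23 on the other strand covers 29.3% of its exon bases. Kif20b, which works in midbody maturation, measured 15.1, 18.0 and 18.8 CPM in ALI and 3.67, 4.71 and 5.41 CPM in controls, a smaller rise of 1.90 ± 0.12 (edgeR adjusted p = 6.98e-08). Kif14, which brings citron kinase to the midbody, measured 8.64, 10.5 and 12.9 CPM in ALI and 0.900, 1.90 and 2.97 CPM in controls, and rose by 2.40 ± 0.24 (edgeR adjusted p = 2.57e-06).

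**Figure D2:**
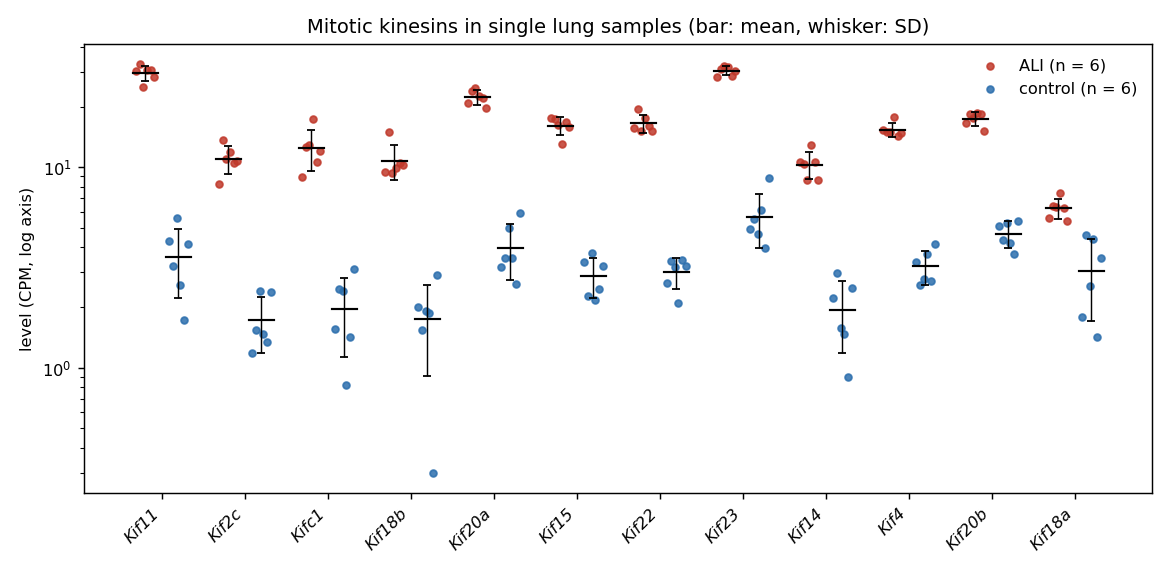
Level (CPM, log axis) of the 12 tested mitotic kinesins in each of 6 ALI and 6 control lung samples, ordered by fold change, with the mean as a bar and the SD as a whisker. No ALI sample of any of these genes lies at or below a control; the narrowest gap is that of Kif18a, from 5.38 CPM in the lowest ALI sample to 4.58 CPM in the highest control.

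The samples did not order the mitotic kinesins alike. ALI replicate 4 was the highest ALI sample for 5 of the 12 genes and ALI replicate 2 for 4. Among controls, replicate 6 was the highest for 6 genes and replicate 5 the lowest for 7. Summed per kilobase of exon, which allows levels to be added over genes, the mitotic kinesins came to 36.8 ± 2.69 CPM per kilobase in ALI samples and 6.59 ± 1.49 in controls (SD, n = 6 each). They made up 14.1% to 17.9% of the summed kinesin level in ALI and 2.53% to 4.07% in controls.

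Of the partner genes of the mitotic kinesins, 22 of 24 were called higher (91.7%, against 18.9% of all genes) and none lower in ALI, with a median log2 fold change of 2.58. The 5 with the smallest p were Cdca8, a subunit of the chromosomal passenger complex, at 2.72 ± 0.13, Racgap1, the partner of Kif23 in centralspindlin, at 2.32 ± 0.14, the mitotic kinase Plk1 at 2.89 ± 0.19, the spindle assembly factor Tpx2 at 2.80 ± 0.19 and Ect2, which Racgap1 recruits to start furrowing, at 2.27 ± 0.15. Their edgeR adjusted p-values ran from 1.43e-08 for Cdca8 to 9.41e-08 for Ect2. Prc1, the midzone bundler to which Kif4 binds, measured 29.9, 33.7 and 40.3 CPM (lowest, median, highest) in ALI and 2.25, 4.23 and 6.86 CPM in controls, a log2 fold change of 2.98 ± 0.20 (edgeR adjusted p = 1.00e-07). Cenpe, a kinetochore kinesin whose symbol lies outside the name rule, measured 16.2, 25.7 and 27.5 CPM in ALI and 1.65, 3.61 and 4.79 CPM in controls, a log2 fold change of 2.85 ± 0.22 (edgeR adjusted p = 2.39e-07). The uncalled partners were Ran, at 0.28 ± 0.13, and Numa1, at -0.07 ± 0.11.

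Markers of proliferation and of cell types moved in the same samples. Over all tested genes 18.9% were called higher and 17.7% lower. All 8 proliferation markers rose, with a summed level of 538 to 661 CPM in ALI and 114 to 169 CPM in controls, and none was at 0. All 10 macrophage and monocyte markers rose (10510 to 17518 CPM in ALI, 4404 to 4708 CPM in controls). Lyz2 alone gave 9352 to 15515 CPM of this sum in ALI and 3993 to 4390 CPM in controls. All 6 neutrophil markers rose as well (152 to 359 CPM in ALI, 74.8 to 126 CPM in controls). All 10 endothelial markers fell (2593 to 3626 CPM in ALI, 4549 to 6642 CPM in controls), as did 5 of 6 alveolar type 1 cell markers (2188 to 2880 CPM in ALI, 3647 to 4890 CPM in controls). All 5 red cell markers fell (759 to 1378 CPM in ALI, 3054 to 11955 CPM in controls), as did 5 of 6 smooth muscle and pericyte markers (490 to 734 CPM in ALI, 790 to 991 CPM in controls) and 2 of 3 club cell markers (2038 to 5357 CPM in ALI, 9770 to 26055 CPM in controls). Of 8 T and B cell markers 3 fell (37.5%), all of B cells (70.4 to 167 CPM in ALI, 133 to 252 CPM in controls). Of 7 fibroblast markers 2 rose (28.6%) and 4 fell (57.1%), with sums of 3956 to 5153 CPM in ALI and 4226 to 5797 CPM in controls. Of 6 alveolar type 2 cell markers, which define lung tissue, 2 rose (33.3%) and 1 fell (16.7%, close to the share of all genes). Their sums were 18948 to 24142 CPM in ALI and 21100 to 28021 CPM in controls. No marker of these lists was at 0 in any sample. The part of these cell types in the kinesin changes was not tested.

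Mki67, a marker of cycling cells, measured 151, 190 and 219 CPM (lowest, median, highest) in ALI samples and 11.1, 22.5 and 32.7 CPM in controls, a log2 fold change of 3.10 ± 0.20 (edgeR adjusted p = 9.97e-08). The level of each mitotic kinesin was also set against Mki67 in the same sample, as a log2 ratio of CPM with a prior count of 2, and compared by a two-sided exact permutation test of 6 against 6 samples. The smallest p that this test can give is 0.00216. These 12 ratios were chosen after values were seen, and p-values were adjusted over the 12. Of the 8 proliferation markers Mki67 rose most, and their log2 fold changes ran from 0.69 to 3.10 with a median of 3.03. Ratios over the other markers were not computed, so the differences hold for Mki67 alone. The ratio over Mki67 was lower in ALI for 9 kinesins. For Kif18a it fell to -4.89 ± 0.17 in ALI, against -2.85 ± 0.44 in controls (SD, n = 6 each), a difference of -2.04 (exact p = 0.00216, adjusted 0.00433). For Kif20b the difference was -1.27, for Kif4 -0.92, for Kif14 -0.74, for Kif23 -0.72 and for Kif20a -0.64, each with all 6 ALI samples below all 6 controls and the same exact p and adjusted p as Kif18a.

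For Kif22, Kif15 and Kif2c the groups overlapped and the differences were -0.73, -0.70 and -0.54 (exact permutation p = 0.0108, 0.00866 and 0.0260, adjusted 0.0162, 0.0148 and 0.0346). Kif11 measured -2.66 ± 0.18 against Mki67 in ALI and -2.60 ± 0.43 in controls (SD, n = 6 each), a difference of -0.07 (exact permutation p = 0.714). Kif18b and Kifc1 did not pass either, at -0.43 and -0.49 (adjusted exact permutation p = 0.137 for both). The Kif18b difference passed without control replicate 5 and the Kifc1 difference without control replicate 4, while the Kif2c difference was lost in 8 of 14 alternatives.

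Transport kinesins made up most of the kinesin level in both groups. Per kilobase of exon they summed to 164 ± 7.85 CPM in ALI samples and 175 ± 22.1 CPM in controls (SD, n = 6 each), which was 68.4% to 71.7% of the summed kinesin level in ALI and 79.6% to 83.4% in controls. Kif1c, a motor for retrieval from the Golgi to the endoplasmic reticulum and for vesicle transport, ranked 1 of 42 in both groups, at 51.9 ± 4.06 CPM per kilobase in ALI and 53.2 ± 7.52 in controls. Kif5b, the broadly expressed conventional kinesin heavy chain, ranked 2, at 37.5 ± 1.10 in ALI and 41.2 ± 5.25 in controls. The ranges of Kif1c and Kif5b did not overlap in ALI samples and did overlap in controls. Kif13a followed at 13.8 ± 0.60 CPM per kilobase in ALI and 17.8 ± 3.14 in controls. In ALI the ranges of Kif13a, Kif3b, Kifc3 and Kif1b overlapped from each gene to the next, and Kif1b lay above the gene after it, Kif3a.

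By the same measure the order of mitotic kinesins moved. Kif11 ranked 10 of 42 in ALI, at 6.14 ± 0.52 CPM per kilobase, and 24 in controls, at 0.744 ± 0.283 (SD, n = 6 each). Kif20a ranked 12 in ALI and 21 in controls. In ALI, Kif11 overlapped with the next gene, Kif2a, and with Kif1bp above it. Kif18a was the lowest detected mitotic kinesin in ALI, ranking 35 at 0.634 ± 0.073 CPM per kilobase, and ranked 34 in controls at 0.310 ± 0.135.

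**Figure D3:**
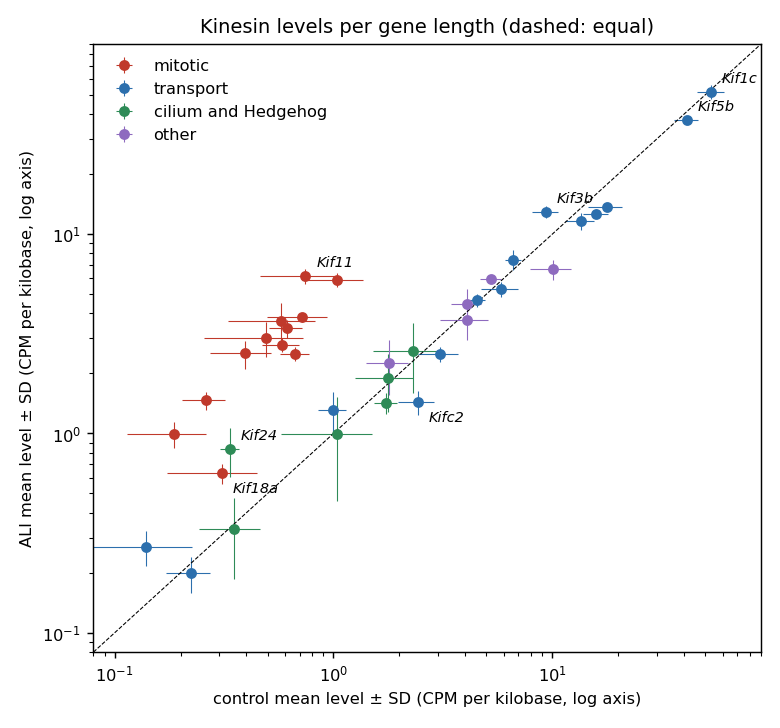
Mean level per kilobase of exon (CPM per kilobase, both axes log) of 37 tested kinesins in ALI samples, upwards, and in control samples, rightwards, with the SD over 6 samples as lines; the dashed line marks equal levels and Kif1bp is left out. Kif1c and Kif5b lie at the top near the line, while the mitotic kinesins lie above it.

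Kif3b was the transport kinesin that rose. It encodes a subunit of the heterotrimeric kinesin-2 that carries cargo along cilia and in the cytoplasm (chr2:153291413-153333390, plus strand). Kif3b measured 67.9, 72.0 and 80.8 CPM (lowest, median, highest) in ALI samples and 40.8, 53.5 and 59.8 CPM in controls, with no overlap. Its log2 fold change was 0.47 ± 0.09 (edgeR adjusted p = 0.00133). The other subunits of that motor were not called. Kif3a, the usual partner of Kif3b, measured 21.1, 27.9 and 29.3 CPM in ALI and 20.3, 24.5 and 26.2 CPM in controls, a log2 fold change of 0.17 ± 0.10 (edgeR adjusted p = 0.199). Kifap3, the cargo adaptor subunit, had -0.09 ± 0.09 (edgeR adjusted p = 0.464), and Kif3c, an alternative partner of Kif3a, had -0.29 ± 0.14 (edgeR adjusted p = 0.113). Exons of genes on the other strand cover 40.7% of the exon bases of Kif3c, so its counts are uncertain.

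Kifc2, Kif13a and Kifc3 fell. Kifc2, a minus-end motor known from neurons (chr15:76659858-76668196, plus strand), measured 4.73, 5.80 and 6.51 CPM (lowest, median, highest) in ALI samples and 7.43, 9.40 and 11.7 CPM in controls. Every ALI sample lay below every control, which held for 8.25% of all tested genes, and the log2 fold change was -0.75 ± 0.15 (edgeR adjusted p = 0.00124). Kif13a, which moves recycling endosomes, measured 105, 111 and 119 CPM in ALI and 95.1, 155 and 161 CPM in controls, a log2 fold change of -0.37 ± 0.11 (edgeR adjusted p = 0.0184). Kifc3, a minus-end motor at epithelial junctions and centrosomes, measured 60.7, 67.8 and 72.0 CPM in ALI and 64.0, 84.8 and 95.3 CPM in controls, a log2 fold change of -0.32 ± 0.09 (edgeR adjusted p = 0.0123). For Kif13a and Kifc3 control replicate 5 was the lowest control and lay within or below the ALI range, while the other 5 controls lay above every ALI sample. Exons of other genes cover 27.5% of Kifc3.

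The count of transport kinesins that fell depended on control replicate 5. Without it 7 of 14 fell, as they did without control replicate 5 and ALI replicate 2 together, the added ones being Kif5b, Kif1b, Kif13b and Kif3c. Calls over all genes, in either direction, rose as well, from 5922 of 16185 to 7223 of 16366 without control replicate 5. Without both samples they were 6825 of 16232. How many of the calls in these fits were lower is not given here. The 7 of 14 therefore has no matching share over all genes beside it. Control replicate 5 holds adipose transcripts, the 7 adipose markers summing to 10359 CPM there and to 9.04 to 28.6 CPM in the other controls. ALI replicate 2 held 515 CPM and the other ALI samples 12.5 to 19.0 CPM. Whether these transcripts bear on the transport kinesins was not tested. Kif5b measured 265, 280 and 285 CPM (lowest, median, highest) in ALI and 229, 317 and 332 CPM in controls. Its log2 fold change was -0.13 ± 0.09 over all 12 samples (edgeR adjusted p = 0.266) and -0.21 without control replicate 5 (edgeR adjusted p = 0.00947). Scaled by library size alone, 1 transport kinesin fell. All 12 mitotic kinesins were called higher with and without these samples.

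The remaining transport kinesins were not called. Kif5c, a neuronal conventional kinesin, measured 1.43, 1.91 and 2.60 CPM (lowest, median, highest) in ALI samples and 0.375, 0.898 and 1.995 CPM in controls, a log2 fold change of 0.94 ± 0.36 (edgeR adjusted p = 0.0540). DESeq2 and limma-voom called it, as did the fit without control replicate 4. Kif1a, a motor of synaptic vesicle precursors, had 0.39 ± 0.17 (edgeR adjusted p = 0.0887) and was called without ALI replicate 3. Kif5a, the third conventional kinesin, had -0.16 ± 0.22, and Kif1b, which carries mitochondria and vesicle precursors, had -0.21 ± 0.11. Kif1c had -0.04 ± 0.10, Kif13b, a motor for membrane proteins, had -0.15 ± 0.12 and Kif16b, a motor of early endosomes, had 0.04 ± 0.08. The edgeR adjusted p-values of these 5 ran from 0.152 for Kif1b to 0.809 for Kif1c. Of the 12 neuron and neuroendocrine markers 5 were tested, 2 fell (40%, against 17.7% of all genes) and none rose. The summed level of the 12 was 37.2 to 68.7 CPM in ALI and 73.4 to 103 CPM in controls. Stmn2 alone gave 32.7 to 59.1 CPM of this in ALI and 63.03 to 89.7 CPM in controls, and Nefl, Snap25, Chga, Chgb, Resp18 and Tubb3 were at 0 in some samples. Their part in the levels of the neuronal kinesins was not tested.

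**Figure D4:**
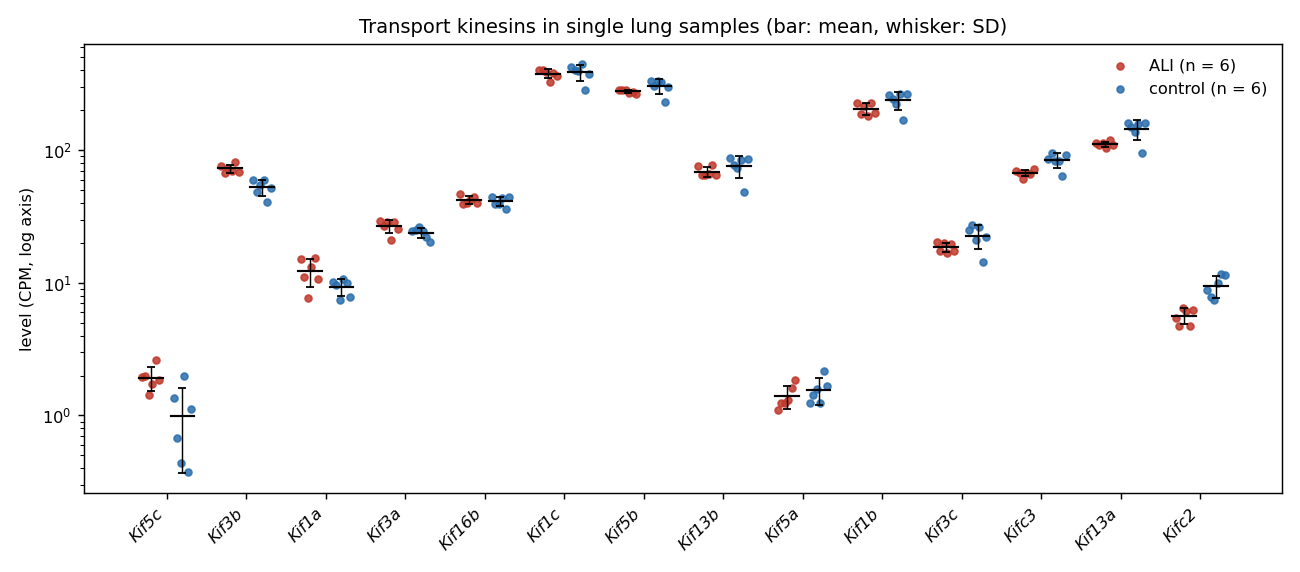
Level (CPM, log axis) of the 14 tested transport kinesins in each of 6 ALI and 6 control lung samples, ordered by fold change, with the mean as a bar and the SD as a whisker. Kif3b lies higher in all ALI samples and Kifc2 lower, while for Kif5b, Kif13a and Kif13b 1 control, replicate 5, lies well below the other 5.

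Of the partners of the transport kinesins, 4 of 22 tested were called higher (18.2%, against 18.9% of all genes) and 8 lower (36.4%, against 17.7% of all genes), with a median log2 fold change of -0.13. Rab27a, a small GTPase of secretory vesicles, rose by 1.03 ± 0.11 (edgeR adjusted p = 8.07e-06), and Arl8b, which links lysosomes to kinesin, rose by 0.47 ± 0.08 (edgeR adjusted p = 0.000229). Rab3a, a GTPase of regulated secretion, measured 10.7, 12.3 and 15.98 CPM (lowest, median, highest) in ALI and 21.4, 32.3 and 36.2 CPM in controls, a log2 fold change of -1.24 ± 0.15 (edgeR adjusted p = 1.27e-05). The scaffold Mapk8ip3 had -0.69 ± 0.11 (edgeR adjusted p = 0.000172) and the kinesin light chain Klc1 had -0.49 ± 0.09 (edgeR adjusted p = 0.000773), both lower in ALI. Cytoplasmic dynein and dynactin, the main motor towards the minus end, had none of 22 tested genes called higher and 2 lower (9.09%, against 17.7% of all genes). These were the light intermediate chain Dync1li2, at -0.34 ± 0.09, and the dynactin subunit Dctn6, at -0.54 ± 0.14 (edgeR adjusted p = 0.00576 and 0.00684).

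The cilium and Hedgehog kinesins included 1 that rose, of 6 tested (16.7%, close to the 18.9% of all genes). Kif24, which restrains the outgrowth of the primary cilium at the mother centriole (chr4:41390745-41464887, minus strand), measured 4.69, 6.39 and 9.24 CPM (lowest, median, highest) in ALI samples and 2.42, 2.60 and 3.14 CPM in controls. The ALI samples spread over a wide range, all above the controls, which lay close together. The log2 fold change was 1.32 ± 0.19 (edgeR adjusted p = 7.52e-05). Kif7, a regulator of Gli factors at the cilium tip, measured 5.49, 6.67 and 7.40 CPM in ALI and 6.88, 8.09 and 8.995 CPM in controls, a log2 fold change of -0.29 ± 0.13 (edgeR adjusted p = 0.0910). Ticrr and another gene on the other strand cover 20.3% of its exon bases. In the Hedgehog pathway 4 of 13 tested genes were called higher (30.8%, against 18.9% of all genes) and 1 lower (7.69%, against 17.7% of all genes). Gas1, a co-receptor, rose by 0.84 ± 0.16 (edgeR adjusted p = 0.000920), and the receptor Ptch1 fell by 0.44 on the log2 scale (SE 0.10, edgeR adjusted p = 0.00385). Gli2, a transcription factor of the pathway, and the co-receptor Cdon rose by 0.56 and 0.52 (edgeR adjusted p = 0.0368 and 0.0434), while Gli1, a target of the pathway, had 0.22 ± 0.18 (edgeR adjusted p = 0.358).

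The 4 kinesins of motile cilia were not called. Kif9 and Kif6 are axonemal motors, Kif19a shortens ciliary microtubules and Kif27 is needed for the central pair, as known from mouse. Their log2 fold changes were 0.09 ± 0.23 for Kif9, -0.08 ± 0.33 for Kif6, 0.17 ± 0.27 for Kif19a and -0.06 ± 0.34 for Kif27, with edgeR adjusted p-values from 0.651 to 0.903. None of the 10 multiciliated markers was called, against 36.6% of all genes, and none was at 0. Their sum ran from 106 to 347 CPM in ALI and from 149 to 279 CPM in controls. The mean log2 level of these markers lay between 4.42 and 4.70 in 4 samples, which were ALI replicates 1 and 3 and control replicates 1 and 5, and between 3.09 and 3.94 in the other 8. Kif9 measured 8.31 to 13.0 CPM in those 4 samples and 5.19 to 8.15 CPM in the 8. Kif19a measured 12.3 to 15.7 CPM in the 4 and 6.17 to 9.47 CPM in the 8, and Kif27 measured 5.62 to 9.85 and 3.11 to 5.34 CPM. For these 3 genes the 4 samples lay above the other 8, whichever group they came from, while Kif6 overlapped, at 2.54 to 2.94 CPM in the 4 and 0.621 to 2.76 CPM in the 8.

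Because the marker levels leave a gap, no correlation over all 12 samples is given. Within the 8 samples Pearson's r with the marker level was 0.46 for Kif9, 0.28 for Kif19a, 0.44 for Kif27 and 0.56 for Kif6, given as a description with no test, as this division was made after values were seen. Within the 6 ALI samples Kif9 had r = 0.883 (exact permutation p = 0.00278, adjusted 0.0125 over the 18 relations computed) and Spearman's rho of 1 (exact permutation p = 0.00278, adjusted 0.0367). Without the 2 ALI samples farthest from the median marker level r was 0.865. Of the 12 relations within a group this was the only one to pass by both measures. Within ALI r was larger for Kif19a, at 0.956, and Kif27, at 0.918 (exact permutation p = 0.0167 and 0.0222, adjusted 0.05 for both). Those adjusted values lie at the threshold and not under it. Without the 2 farthest ALI samples r was 0.770 for Kif19a and 0.565 for Kif27. Within the 6 controls Kif9 had r = 0.897 (exact permutation p = 0.108), which was -0.196 without the 2 farthest controls, so it rests on those. In the same way r within controls turned to -0.834 for Kif19a, -0.552 for Kif6 and -0.283 for Kif7. It kept its sign for Kif27, from 0.752 to 0.451, and for Kif24, from 0.917 to 0.989. Neither of these passed (exact permutation p = 0.0889 and 0.0222, adjusted 0.16 and 0.05).

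**Figure D5:**
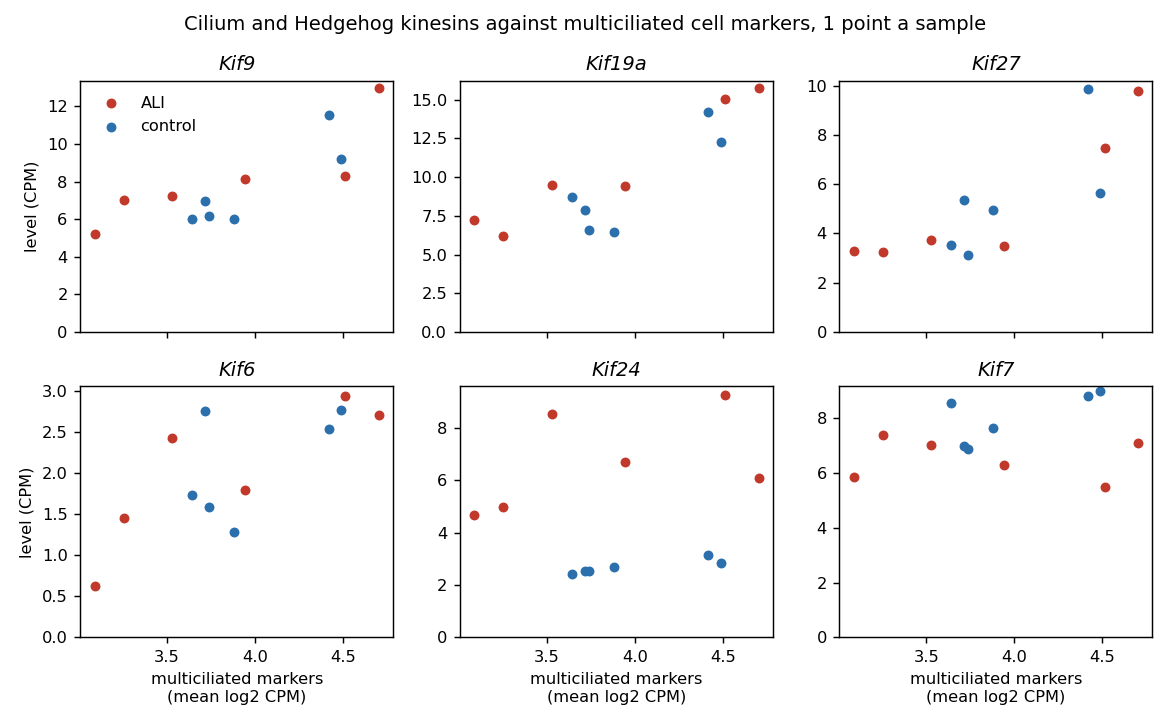
Level (CPM) of the 6 cilium and Hedgehog kinesins, upwards, against the mean log2 CPM of 10 multiciliated cell markers, rightwards, with 1 point for each ALI and control sample. For Kif9, Kif19a and Kif27 the 4 samples with markers above 4.4 lie highest, while Kif24 divides by group.

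Of the 5 other kinesins tested 1 fell (20%, close to the 17.7% of all genes). Kif26a, an atypical kinesin without motor activity that restrains growth factor signalling in enteric neurons of the mouse (chr12:112146208-112181747, plus strand), measured 38.9, 45.6 and 52.5 CPM (lowest, median, highest) in ALI samples and 42.8, 71.7 and 83.5 CPM in controls. Control replicate 5 lay within the ALI range and the other 5 controls above it, and the log2 fold change was -0.59 ± 0.14 (edgeR adjusted p = 0.00388). Its relative Kif26b measured 21.8, 29.5 and 46.4 CPM in ALI and 16.8, 28.3 and 30.9 CPM in controls, a log2 fold change of 0.32 ± 0.20 (edgeR adjusted p = 0.233). Kif2a, a microtubule depolymerase of neurons and spindle poles, had 0.18 ± 0.08 (edgeR adjusted p = 0.0916), Kif21b 0.12 ± 0.14 and Kif21a, which limits microtubule growth at the cell cortex, -0.13 ± 0.17. Kif1bp, the binding protein, was called lower at -0.20 ± 0.07 (edgeR adjusted p = 0.0495), and that call was lost in 15 of 21 alternatives.

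Close relatives within the family changed unequally. The log2 ratio of CPM between relatives was compared in 16 pairs, chosen after values were seen, by a two-sided exact permutation test of 6 against 6 samples with adjustment over the 16. In 6 pairs the groups did not overlap, each with an exact p of 0.00216, the smallest possible, and an adjusted p of 0.00577. How often ratios of unrelated genes separate the groups was not computed. Taken singly, 13.1% of all tested genes had every ALI sample above every control and 8.25% had every one below. Kif2a over Kif2c fell to 1.80 ± 0.25 in ALI, against 4.24 ± 0.40 in controls (SD, n = 6 each), a difference of -2.44. Most of it was the rise of Kif2c, whose log2 fold change was 2.66, against 0.18 for Kif2a. Kif18a over Kif18b fell to -0.77 ± 0.28 in ALI, against 0.85 ± 0.80 in controls, so that Kif18b had the larger CPM in all 6 ALI samples. The difference was -1.61. Kif20a over Kif20b measured 0.36 ± 0.08 in ALI and -0.27 ± 0.27 in controls, a difference of 0.63.

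Kif3b over Kif3c measured 1.97 ± 0.07 in ALI and 1.23 ± 0.22 in controls (SD, n = 6 each), a difference of 0.74. For Kif26a over Kif26b the difference was -0.86, and for Kif13a over Kif13b it was -0.23, with 0.69 ± 0.08 in ALI and 0.92 ± 0.04 in controls. The Kif13a ratio left no overlap although control replicate 5 was the lowest control for both genes. A further 3 pairs passed with overlapping groups in all 14 alternatives, which were Kif3a over Kif3b at -0.31, Kif5b over Kif5c at -1.18 and Kif1b over Kif1c at -0.18 (adjusted exact permutation p = 0.00866, 0.00866 and 0.0231). Kif1a over Kif1b, Kif3a over Kif3c and Kif5a over Kif5c passed at an adjusted p of 0.0346 and were lost in 9, 7 and 9 of 14 alternatives. The other 4 pairs did not pass.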

How the data were processed

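The authors deposited 1 table of whole-number read counts per gene, not normalised, for total RNA of mouse lung extracted with TRIzol and prepared with a NEBNext Ultra kit, per the labels' protocols. Per the submitters' processing notes, the tools were fastp, HISAT2 and featureCounts and the build GRCm38 (mm10). Their versions, the strand setting and the treatment of reads matching several genes are not given in the sources used, and close paralogs and overlapping genes are therefore uncertain. The table held 0 columns of other samples and 0 rows without a gene ID. Depth was 15707937 to 19706494 counts per sample. The 30 pairs of samples within a group differed beyond sampling noise, by chi-square divided by its degrees of freedom. This value ran from 213 to 239 in pairs with control replicate 5 and from 6.91 to 46.4 in the other pairs. Reads carry no molecular identifiers.

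Counts were analysed in R 4.3.3 with edgeR 4.0.16 (filterByExpr, minimum count 10, TMM, robust quasi-likelihood F test, Benjamini-Hochberg over 16185 genes), tested on simulated data. With 50 genes changed at each size, the simulation recovered 22% of 1.5-fold, 50% of 2-fold and 94% of 4-fold changes. Of its 136 calls 9 were false. It held far fewer changed genes than were called here, so its rates need not hold for these data. A gene not called may still have changed. CPM uses the TMM-scaled library size, and the per kilobase level divides it by the deposited exon length. Coordinates are those of GENCODE M21 (GRCm38) by gene ID, and the deposited positions were not used. Alternatives were DESeq2 1.42.0, limma-voom (limma 3.58.1), other scaling and filters, the replicate number as a block and leaving out samples.

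Members, lists and tests were chosen with earlier results of these data known. Every kinesin is named. Called partners with the 5 smallest p of each list are named, with Mki67, Cenpe, Tpx2, Prc1, Racgap1, Kifap3, Klc1, Gli1 and Ptch1 whatever the result. A gene that this rule takes is not reported here. Chosen only after values were seen in this work were the 16 ratios between relatives, the 12 ratios over Mki67, the 18 relations with multiciliated markers and the division of samples at the gap in those markers. The same holds for 2 departures from the written plan. Levels between genes were to be a TPM-like share, and CPM per kilobase was used because control replicate 5 distorted that share. Promoters of the 3 mitotic genes with the smallest p were to be shown, and those of Kif22, Kif4 and Kif15 were passed over because their windows overlap annotated exons. The promoter of Kif20a, which ranks before Kif11, was not among those searched and was not used here.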

Additional observations from a re-analysis of the deposited data

Results flagged for a closer look

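In each group of 6 samples the highest and the lowest kinesin level were set against the rest of their group by Dixon's test, in 76 groups. A gap above the 95% critical value was found 7 times, and chance gives about 1 in 20. Among mitotic kinesins, Kif18b measured 15.02 CPM in ALI replicate 2, against 10.5 in the next ALI sample. Kif4 measured 17.7 CPM in ALI replicate 4, against 15.4 in the next, and Kif15 measured 13.1 CPM in the same sample, the lowest of its group, against 15.9 in the next. Among transport kinesins, control replicate 5 was far below the other controls for Kif5b (229 CPM, next 302), Kif13a (95.1 CPM, next 137) and Kif13b (48.6 CPM, next 73.5). Kif27, of motile cilia, measured 9.85 CPM in control replicate 1, against 5.62 in the next control.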

How the results depend on the processing

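All 12 mitotic calls, and those of Kif3b, Kifc2, Kif24 and Kif26a, were kept with their direction in all 21 alternatives. Transport kinesins called lower numbered 1 with library size alone, 7 without both samples with adipose transcripts, and 3 to 7 when 1 sample was left out, the 7 without control replicate 5. Over all genes 5492 were called with library size alone and 7223 without control replicate 5, against 5922 in the main fit. Transport kinesins called higher numbered 2 under DESeq2 and under limma-voom, and 1 to 2 when 1 sample was left out. Library size alone ended the calls of Kif13a and Kifc3. The replicate numbers do not pair the samples (same-number correlations of deviations -0.27 to 0.27, 1 of 6 ALI samples correlating best with its own number). With the replicate number as a block 4822 genes were called in place of 5922, and 2 transport kinesins were lower, Kif13a being lost.

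Changes of sign touched only uncalled values. When 1 sample was left out, the log2 fold change of Kif1c ran from -0.112 to 0.00505, with ranges of -0.0030 to 0.0575 for Kif16b, -0.0919 to 0.245 for Kif9, -0.351 to 0.195 for Kif27, -0.226 to 0.108 for Kif6 and -0.221 to 0.00583 for Kif21a. The log2 ratio of Kif5a over Kif5b ran from -0.117 to 0.153 and that of Kif11 over Mki67 from -0.156 to 0.0446. Without both samples with adipose transcripts Kif27 was 0.0506, Kif6 0.195 and Kif5a over Kif5b 0.186. The cause was not tested. Alternatives for the ratios, added after seeing the data, were a prior count of 0.5 and the samples left out. Depth limits Kif17 and Kif28, which had too few counts to test.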
